A study of Mus musculus with 6 samples.

Results

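The genes that bring glucose into the cell and commit it to glycolysis were followed in NIH3T3 cells, an immortalized line of mouse embryonic fibroblasts that the study calls Normal cells, with and without forskolin (FSK), a plant compound that activates adenylate cyclase and thereby raises cAMP and activates PKA. The genes were 10 chosen by name, namely the glucose transporters Slc2a1, Slc2a3 and Slc2a4, the hexokinases Hk1 and Hk2, the phosphofructokinases Pfkl, Pfkm and Pfkp, and Pfkfb3 and Pfkfb2. A gene was measured where the array annotation paired a probe set with its symbol alone, which held for 9 of the 10, with 1 probe set each, among 16797 genes in all. Pfkm, the muscle phosphofructokinase, had no such probe set and was not analysed here. For Hk1, another 16 probe sets that the annotation shares between Hk1, Rpl17 and other genes were left out.

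Total RNA was measured on 6 Affymetrix gene arrays, 3 of untreated cells (N) and 3 of FSK-treated cells (NF), whose titles number them as biological replicates 1 to 3 of each group. All cells were plated in 25 mM glucose, moved after attachment to medium with 1 mM glucose, and harvested 72 h later, with 10 μM FSK added to NF cultures on 2 occasions, 24 h and 48 h into that period. Figure legends of the study name DMSO as the vehicle in cultures without FSK, and the labels of N name no agent. Both groups therefore share the low-glucose medium and come from a single cell line, and in RNA of whole cultures fewer cells of a kind and less RNA per cell cannot be told apart. Values are log2 expression values made by the authors with RMA, a procedure that subtracts background, is designed to bring the arrays to a common distribution and gives 1 value per probe set. Over the probe sets tested here the deposited columns did not all have the same spread, as given below.

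Glucose crosses the plasma membrane through facilitative transporters of the SLC2 (GLUT) family and is trapped by hexokinases as glucose 6-phosphate. Phosphofructokinase 1, a tetramer of liver (Pfkl), muscle (Pfkm) and platelet (Pfkp) subunits, then makes fructose 1,6-bisphosphate, the step at which the flux is committed to glycolysis. The bifunctional PFKFB enzymes make and break down fructose 2,6-bisphosphate, a strong activator of phosphofructokinase 1, and the activity of some of their isoforms is controlled by phosphorylation by PKA. The arrays measure mRNA and not these activities.

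In NF, Pfkl, Hk1 and Pfkfb3 had higher values than in N on every array, by log2 differences of 0.90, 1.05 and 0.59 in the means (1.87-fold for Pfkl and 2.07-fold for Hk1), whereas Slc2a1, Hk2, Pfkp and Pfkfb2 overlapped between the groups, and Slc2a3 and Slc2a4 were dim. With limma and Benjamini-Hochberg adjustment over all probe sets tested, 0 of the 9 genes passed an adjusted p of 0.05, compared with 2.55% of all genes tested (1.83% higher and 0.720% lower in NF). Pfkl came closest, with an adjusted p of 0.0518. At an unadjusted p under 0.05, limma took in 3 of the 9 genes, all higher in NF (13.8% of all genes reached this level, 8.33% higher and 5.49% lower), and an unmoderated per-gene test, which the statistics section of the paper names for its measurements in general, took in 2, Pfkl and Pfkfb3, both higher in NF (5.95% of all genes were higher and 5.13% lower by it). All NF values lay above all N values in 3 of the 9 genes and below them in 0, where 10.5% and 9.70% of all genes did so, 20.2% in either direction. The median log2 change of the 9 genes, of which 2 were dim, was 0.10, beside -0.03 over all genes. Over all genes with dim probe sets left out it was 0.09. The p-values measure the spread between the arrays of each group, which the titles call biological replicates without naming separate cultures.

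N replicate 1 stood apart from the other N arrays. The SD of its log2 values over the probe sets tested was 2.19, against 2.37 to 2.42 on the other arrays of both groups. Over 5189 probe sets of moderate level, with a mean log2 value between 5 and 8, its median difference from the mean of the other two N arrays was -0.493, and it had the lowest N value in 7 of the 9 genes, while N replicate 3 had the highest N value in 6. Results are therefore also given without N replicate 1. Without it 2 of the 9 genes passed, Pfkl and Hk1, both higher in NF, compared with 5.49% of all genes (2.93% higher and 2.56% lower). What set this array apart was not tested.

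**Figure D1:**
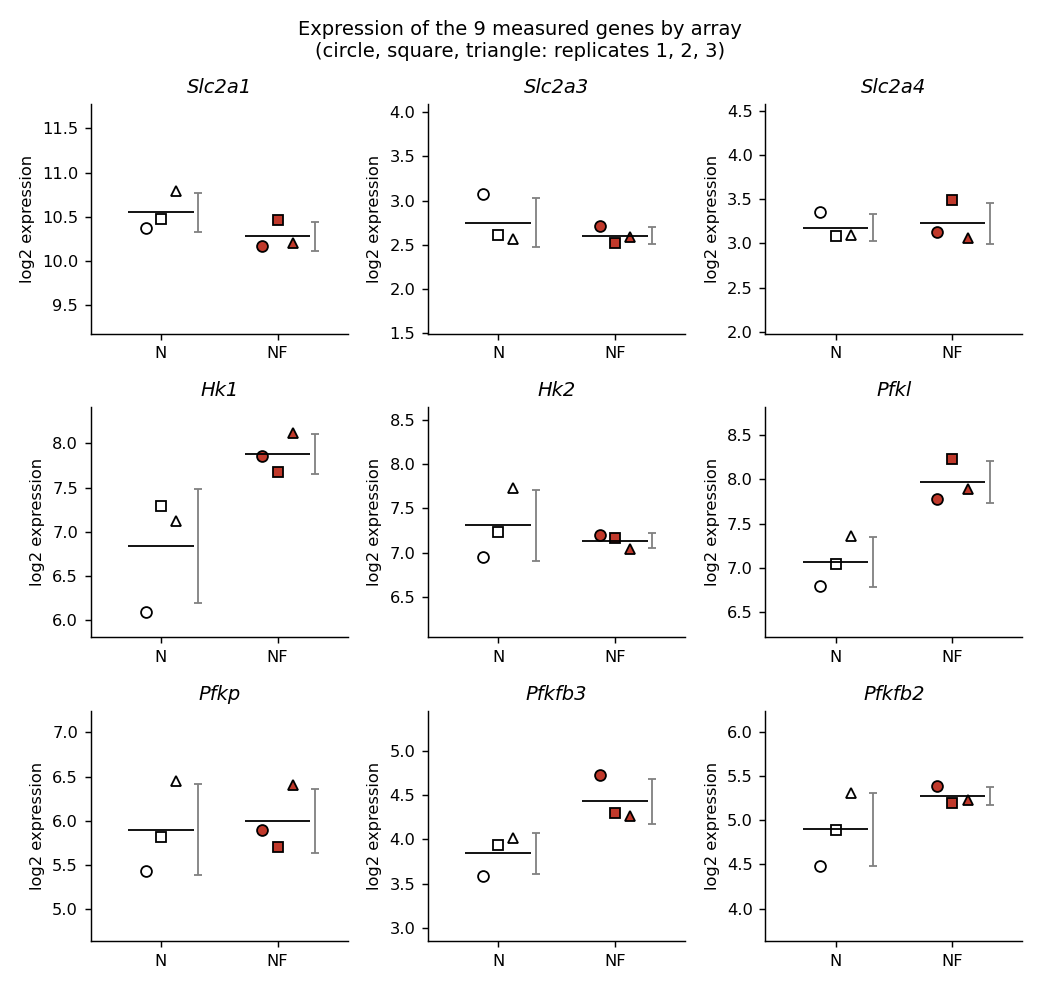
Log2 expression (vertical axis, a span of 2.6 log2 units in every panel) of the 9 measured genes in N (open) and NF (filled), with 1 point per array, circles, squares and triangles for replicates 1, 2 and 3, a line at each group mean and a grey bar of 1 SD on either side of it (n = 3). The NF points of Hk1, Pfkl and Pfkfb3 lie above every N point, and N replicate 1 is the lowest N point in 7 of the 9 panels.

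The DNA before the transcription starts of the genes these results turn on is shown to set the 3 genes with separated groups beside Slc2a1 and Hk2, the major transporter and hexokinase of many growing cells. RefSeq promoter windows of 300 bases, from 250 bases before to 50 after an annotated start in GRCm38.p6, were at hand for 8 of the 10 genes, 15 windows in all, and the 250 bases before the start are printed 5′ to 3′ on the gene's strand. They lie at chr10:78009808-78010057 (minus strand) for Pfkl, chr10:62340422-62340671 (minus strand) for the downstream of both Hk1 starts, chr2:11553930-11554179 (minus strand) for the upstream of both Pfkfb3 starts, chr4:119108495-119108744 (plus strand) for Slc2a1 and chr6:82774455-82774704 (minus strand) for Hk2. Capitals mark matches, on either strand, to TGACG, the 5-base core of the cAMP response element bound by CREB, and to ACGTG. The latter is a form of the core bound by hypoxia-inducible factors and is called the hypoxia core below. Other forms of that core were not searched.
Pfkl: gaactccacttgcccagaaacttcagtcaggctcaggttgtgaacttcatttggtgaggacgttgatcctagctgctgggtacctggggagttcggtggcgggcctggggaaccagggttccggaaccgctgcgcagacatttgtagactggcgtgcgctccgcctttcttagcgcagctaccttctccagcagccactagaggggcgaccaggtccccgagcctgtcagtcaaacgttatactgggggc
Hk1: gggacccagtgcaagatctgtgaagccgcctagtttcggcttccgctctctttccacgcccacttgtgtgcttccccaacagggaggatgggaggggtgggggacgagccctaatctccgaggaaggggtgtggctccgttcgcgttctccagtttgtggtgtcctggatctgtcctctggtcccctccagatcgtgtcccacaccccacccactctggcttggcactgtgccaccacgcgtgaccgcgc
Pfkfb3: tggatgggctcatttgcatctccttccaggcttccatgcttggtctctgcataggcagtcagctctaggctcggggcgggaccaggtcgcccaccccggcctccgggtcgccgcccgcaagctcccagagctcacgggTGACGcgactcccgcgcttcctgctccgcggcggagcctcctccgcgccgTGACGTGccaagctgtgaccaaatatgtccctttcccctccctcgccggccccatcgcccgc
Slc2a1: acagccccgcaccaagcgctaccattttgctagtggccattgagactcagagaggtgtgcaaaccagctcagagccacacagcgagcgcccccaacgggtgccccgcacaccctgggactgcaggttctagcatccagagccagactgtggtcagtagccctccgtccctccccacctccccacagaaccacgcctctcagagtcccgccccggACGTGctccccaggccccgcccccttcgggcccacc
Hk2: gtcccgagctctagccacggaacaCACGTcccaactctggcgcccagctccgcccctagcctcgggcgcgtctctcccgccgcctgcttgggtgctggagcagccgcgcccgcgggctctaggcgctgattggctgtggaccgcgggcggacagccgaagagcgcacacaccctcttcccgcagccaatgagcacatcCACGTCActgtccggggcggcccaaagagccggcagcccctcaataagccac

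Over the whole windows, the upstream Pfkfb3 window held 2 matches to TGACG, at -112 and -62 from the start, and 1 hypoxia core at -60, which overlaps the latter. The Hk2 window held 1 match to TGACG at -50 and 2 hypoxia cores at -226 and -52, the latter overlapping the match to TGACG, and the Slc2a1 window held 1 hypoxia core at -36. The downstream Hk1 window held 2 hypoxia cores after the start, at 7 and 16, outside the printed stretch. The Pfkl window held no match to TGACG or ACGTG. Matches to TGACG were also in the downstream Pfkfb3 window, at -6, and in 1 window of Pfkfb2, at -52. Hypoxia cores were also in the downstream Pfkfb3 window, at -53 and -52. Windows of Pfkfb2 held them at -22 and -21 and, in another, at -172. Those of Pfkm held them at -136, -135 and 16 and, in another, at -244. Each adjacent pair is an E-box, given below, read on both strands. The GC box GGGCGG had 3 matches in the windows of Pfkl, Hk2 and upstream Pfkfb3, 4 in that of Pfkp, 2 in those of Slc2a1, downstream Pfkfb3 and 1 of Pfkfb2, and 0 in the others. Of all 32851 windows, 20.8% held TGACG, 19.6% ACGTG 35.7% GGGCGG and 7.15% the E-box CACGTG, which contains ACGTG, each on either strand, and the full element TGACGTCA (1.79% of all windows) was in 0 of the 15 windows of these genes. E-box matches were in 1 window each of Pfkfb3 (at -53), Pfkfb2 (at -22) and Pfkm (at -136). Slc2a3 and Slc2a4 had no window. A match of letters is not a site in use, and no binding was measured.

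Slc2a1 encodes GLUT1, the transporter of basal glucose uptake in most proliferating cells. Its log2 values were 10.37, 10.48 and 10.79 in N replicates 1 to 3 and 10.17, 10.47 and 10.21 in NF replicates 1 to 3. The groups overlapped, since NF replicate 2 lay above N replicate 1, and the means of 10.55 ± 0.22 (SD, n = 3) and 10.28 ± 0.16 (SD, n = 3) differed by a log2 change of -0.27 (95% interval -0.63 to 0.10, limma adjusted p = 0.547). Without N replicate 1 the log2 change was -0.35 (interval -0.70 to -0.01, adjusted p = 0.279).

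Slc2a3 encodes GLUT3, a transporter of high affinity best known from neurons, and Slc2a4 encodes GLUT4, the insulin-regulated transporter of muscle and fat. Both had means below 3.70, the median over probe sets that served as the bound for dim probe sets. Slc2a3 read 3.07, 2.61 and 2.56 in N and 2.71, 2.52 and 2.58 in NF, with N replicate 1 the highest and the other 5 arrays close together. Slc2a4 read 3.35, 3.08 and 3.09 in N and 3.12, 3.49 and 3.06 in NF, with NF replicate 2 the highest. Their log2 changes were -0.14 (95% interval -0.52 to 0.24) and 0.05 (-0.32 to 0.42), with limma adjusted p-values of 0.782 and 0.935. Slc2a3 changed sign without N replicate 1 (0.016) and Slc2a4 without NF replicate 2 (-0.083), so no direction is given for either.

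Hk1 encodes the hexokinase found in nearly all tissues, which binds the outer membrane of mitochondria. Its log2 values were 6.10, 7.29 and 7.12 in N and 7.86, 7.67 and 8.12 in NF. Every NF array lay above every N array, with a gap of 0.38 between the nearest values, and N replicate 1 lay 1.10 below the mean of the other two N arrays. The means were 6.84 ± 0.64 (SD, n = 3) and 7.88 ± 0.22 (SD, n = 3), a log2 change of 1.05 (standard error 0.30, 95% interval 0.35 to 1.74, limma adjusted p = 0.147). Without N replicate 1 the log2 change shrank to 0.68 (interval 0.32 to 1.03) while the adjusted p was 0.0414, so that this array enlarged both the difference and the spread in N. With quantile normalization the log2 change was 0.94 (adjusted p = 0.0317).

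Hk2 encodes the hexokinase of muscle and fat that many growing and transformed cells also express. It read 6.95, 7.24 and 7.73 in N and 7.20, 7.16 and 7.05 in NF. The 3 NF values lay inside the range of N, which was 0.78 wide against 0.16 in NF. The log2 change was -0.17 (95% interval -0.63 to 0.29, limma adjusted p = 0.789), and it was -0.35 without N replicate 1 and turned to 0.042 without N replicate 3.

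The hexokinases were also set against each other within each array, which removes a shift common to both probe sets. This comparison and the corresponding ones for Pfkl with Pfkp and Pfkfb3 with Pfkfb2 were chosen after the values were seen. The log2 value of Hk1 minus that of Hk2 was -0.85, 0.05 and -0.61 in N and 0.66, 0.51 and 1.07 in NF, so the groups did not overlap. The mean difference shifted by 1.22 toward Hk1 in NF (exact permutation test, two-sided p = 0.1, which is as low as 3 against 3 arrays can reach, and 0.15 adjusted over the 3 pairs). It was between 1.03 and 1.48 with each array left out in turn and 1.03 without N replicate 1. A difference within arrays does not tell which of both probe sets differed.

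Pfkl, the liver-type subunit of phosphofructokinase 1, had the lowest p of the 9 genes. Its log2 values were 6.80, 7.04 and 7.35 in N and 7.78, 8.23 and 7.89 in NF. The lowest NF array lay 0.42 above the highest N array. The means were 7.06 ± 0.28 (SD, n = 3) and 7.97 ± 0.24 (SD, n = 3), a log2 change of 0.90 (standard error 0.19, 95% interval 0.47 to 1.33) with an adjusted p of 0.0518 from limma, just above the threshold. The change lay between 0.77 and 1.05 under the alternatives tried, 16 in number, and the adjusted p between 0.0101 with array weights and 0.342 with the adjusted per-gene test. It passed under 5 settings with adjustment, namely quantile normalization (0.0205), median centring (0.0451), dim probe sets left out (0.0405), array weights (0.0101) and without N replicate 1 (0.0357), and it did not pass with any other single array left out.

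The platelet-type subunit Pfkp read 5.44, 5.82 and 6.45 in N and 5.90, 5.71 and 6.40 in NF. In both groups replicate 3 was the highest, and the groups overlapped over most of their range. The log2 change was 0.10 (95% interval -0.54 to 0.74, limma adjusted p = 0.924), with a sign that turned under quantile normalization (-0.031), without N replicate 1 (-0.13) and without NF replicate 3 (-0.10), so that no direction is given. Pfkl minus Pfkp, taken within each array, was 1.36, 1.22 and 0.91 in N and 1.88, 2.52 and 1.49 in NF. The groups did not overlap, and the shift toward Pfkl in NF was 0.80 (two-sided exact permutation p = 0.1, 0.15 adjusted over the 3 pairs), or 0.90 without N replicate 1. With NF replicate 2 left out, the array with the highest Pfkl value, it was 0.52.

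Pfkfb3 encodes the inducible isoform of the bifunctional enzyme, which strongly favours the making of fructose 2,6-bisphosphate. It read 3.58, 3.93 and 4.01 in N and 4.72, 4.30 and 4.26 in NF. All NF values were above all N values, by a gap of 0.25, with NF replicate 1 the highest. The means were 3.84 ± 0.23 (SD, n = 3) and 4.43 ± 0.25 (SD, n = 3), a log2 change of 0.59 (standard error 0.18, 95% interval 0.17 to 1.00, limma adjusted p = 0.176). Its mean over the arrays, 4.14, lay not far above the bound of 3.70 for dim probe sets, where RMA values understate changes. Without N replicate 1 the log2 change was 0.46 (adjusted p = 0.171), and without NF replicate 1 it was 0.44 (adjusted p = 0.575).

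Pfkfb2 encodes the isoform best known from heart. It read 4.48, 4.89 and 5.31 in N and 5.39, 5.19 and 5.23 in NF, close together in NF and 0.83 apart in N. N replicate 3 lay above NF replicates 2 and 3, so the groups overlapped. The log2 change was 0.37 (95% interval -0.10 to 0.85, limma adjusted p = 0.515) and 0.17 without N replicate 1 (interval -0.18 to 0.52). Pfkfb3 minus Pfkfb2, taken within each array, overlapped between the groups, with a shift of 0.21 (two-sided exact permutation p = 0.3).

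**Figure D2:**
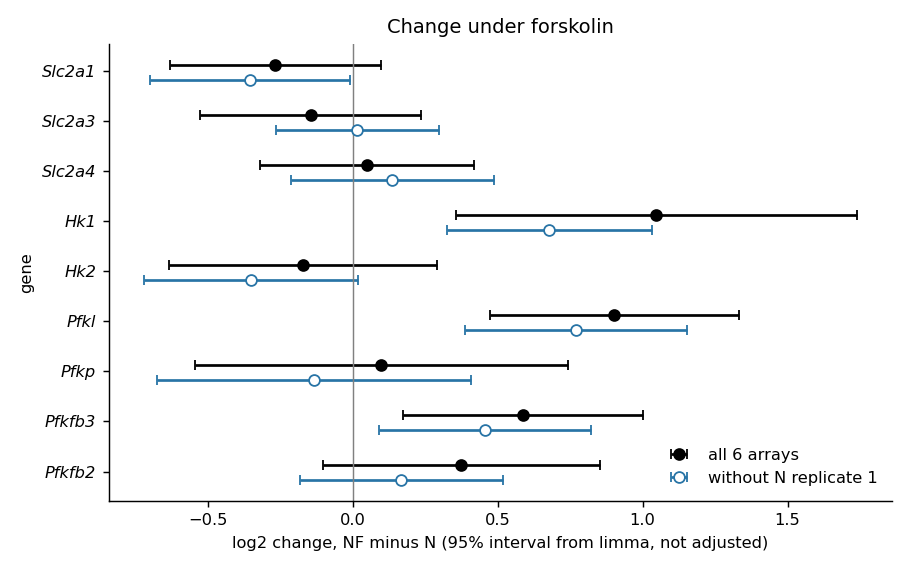
Log2 change from N to NF (horizontal axis) of the 9 genes with its 95% interval from limma, not adjusted for the number of genes, from all 6 arrays (filled) and without N replicate 1 (open). Pfkl, Hk1 and Pfkfb3 have intervals above 0 in both fits, the interval of Slc2a1 lies below 0 without N replicate 1, and Pfkp and Slc2a3 change sign.

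The order of the changes from the highest was Hk1, Pfkl, Pfkfb3, Pfkfb2, Pfkp, Slc2a4, Slc2a3, Hk2 and Slc2a1. The 95% intervals of each pair of neighbours in this order overlapped, and differences between neighbours were not tested except for Pfkfb3 and Pfkfb2 within arrays, as given above. The genes whose values over the 6 arrays were most like those of Pfkl, by Pearson correlation over all genes, were Net1 (0.994), Chic1 (0.993), Lpin2 (0.987), Bpifc (0.984) and Lcmt2 (0.980). This is a description over 6 arrays that fall into both groups, and it was not tested.

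**Figure D3:**
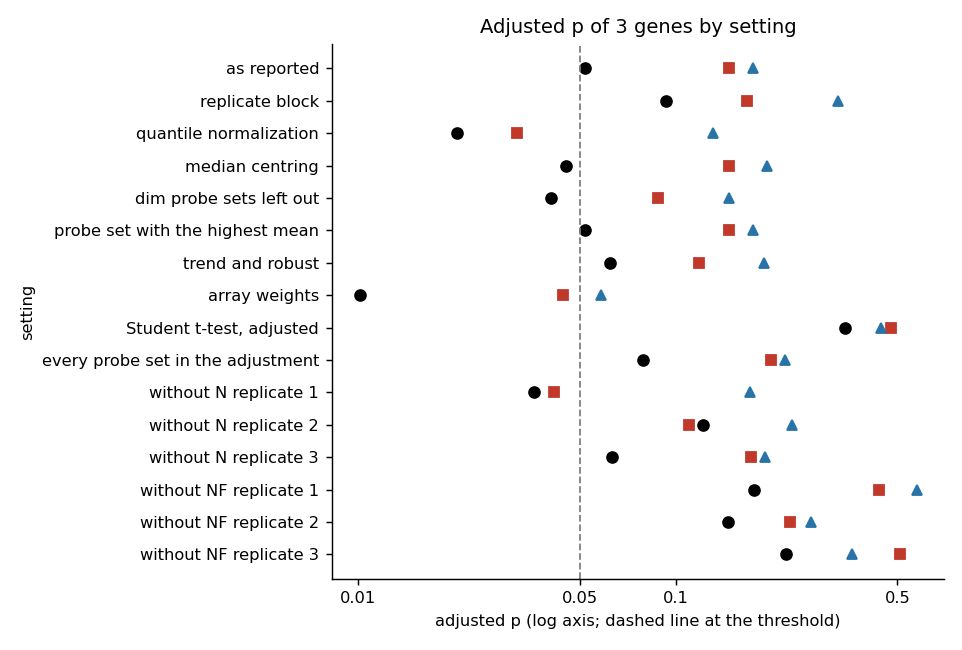
Adjusted p (horizontal log axis) of Pfkl (circles), Hk1 (squares) and Pfkfb3 (triangles) as reported and under each alternative with adjustment (vertical axis), with a dashed line at 0.05. Pfkl lies left of the line under 5 alternatives, Hk1 under 3, and Pfkfb3 under 0, its lowest adjusted p being 0.0580 with array weights.

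The later enzymes of glycolysis carry the carbon from fructose 1,6-bisphosphate to pyruvate. Their list also held Bpgm, bisphosphoglycerate mutase, an enzyme of a side branch of that path. The 8 genes of the list that were measured, of 15 listed, all had higher means in NF. Of these 8, 0 passed limma's adjustment (1.83% of all genes were called higher). At an unadjusted p under 0.05, limma took in 5 and the per-gene test 3, all higher in NF, beside 8.33% and 5.95% of all genes. Their median log2 change was 0.63, beside -0.03 over all genes and 0.09 over all genes with dim probe sets left out. All NF values lay above all N values in 6 of the 8, beside 10.5% of all genes. Of the 8, 2 were dim, Pgam2 and Pklr. Pgam2 counts among the 6 with a gap of only 0.008, and the higher mean of Pklr was a log2 change of 0.03 with overlapping groups. Bpgm counts among the 6 and among the 5 of limma, with a log2 change of 0.70 (limma adjusted p = 0.186).

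Tpi1, which interconverts the triose phosphates, read 9.35, 9.59 and 9.03 in N and 10.15, 10.15 and 10.04 in NF, which gave a log2 change of 0.79 (standard error 0.16, limma adjusted p = 0.0508). Pkm, the pyruvate kinase of growing cells, read 9.66, 10.00 and 9.66 in N and 10.39, 10.42 and 10.44 in NF, a log2 change of 0.64 (adjusted p = 0.0603). In both genes the NF arrays were tightly grouped and lay above every N array, and N replicate 1 was not the lowest N array of Tpi1. Pgk1 had log2 changes between 0.74 and 0.77 over its 3 probe sets and Pgam1 of 0.48 on each of 3, with 2 probe sets of identical values in each gene. Without N replicate 1, 3 genes of this list passed, Tpi1, Pgk1 and Pkm, all higher in NF (2.93% of all genes were called higher), with a median of 0.58 over the list. Genes such as Gapdh and Aldoa had no probe set with their symbol alone and were not analysed here.

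**Figure D4:**
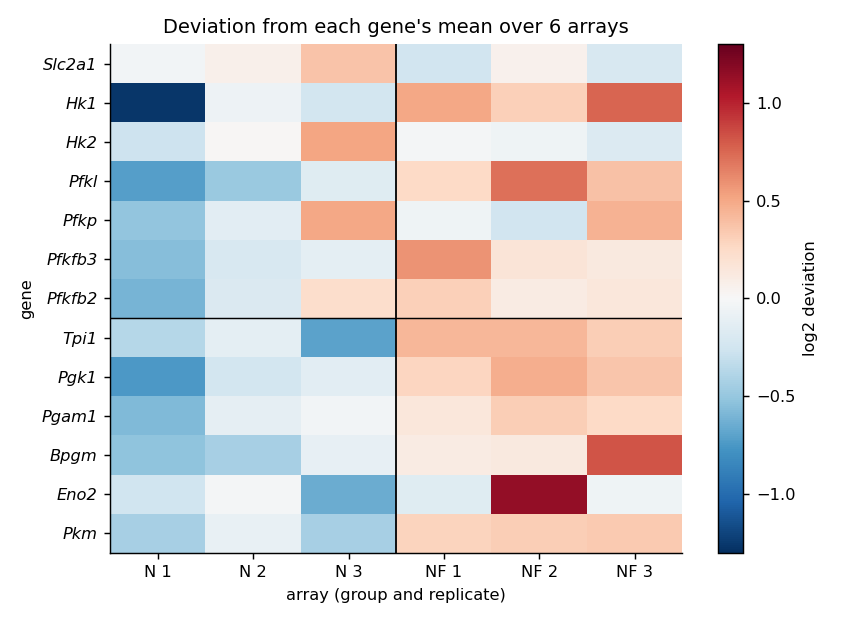
Deviation of each log2 value from its gene's mean over the 6 arrays (colour, blue low and red high), by array (columns, N left and NF right of the vertical line), for the 7 upper genes that are not dim (above the horizontal line) and the 6 genes of lower glycolysis that are not dim. Lower glycolysis is red across NF except for Eno2, whose NF replicates 1 and 3 deviate by -0.16 and -0.06, and Slc2a1, Hk2 and Pfkp show no such division.

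Among other hexose transporters, Slc2a6, which encodes GLUT6, a transporter of intracellular membranes, fell in NF. It read 6.61, 6.15 and 6.99 in N and 5.28, 5.44 and 5.42 in NF, with every NF array below every N array. The mean was 2.30-fold lower in NF, and the log2 change was -1.20 ± 0.21 (standard error, limma adjusted p = 0.0298). Of the 11 measured genes of this list it was the 1 past the test (2.55% of all genes passed, 0.720% as lower in NF), 10 did not pass, and 7 were dim. Slc2a8 (GLUT8), also a transporter of intracellular membranes, had a log2 change of 0.59 (adjusted p = 0.166). Slc2a6 lost its call with N replicate 3 left out (adjusted p = 0.0642), with any 1 of the NF arrays left out (adjusted p between 0.0761 and 0.180) and with every probe set in the adjustment (0.0509). It also lost it with replicate numbers as a block (0.0734) and with the adjusted per-gene test (0.310). With N replicate 1 left out it stayed past the test.

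Of the remaining glucose-phosphorylating enzymes and their regulator, 0 of 4 measured genes passed the adjustment of limma, where 2.55% of all genes did. Before adjustment 0 passed by limma or the per-gene test, and 3 were dim. The lowest p-values were those of Gckr, the glucokinase regulator, which was dim, and Adpgk, the ADP-dependent glucokinase, with log2 changes of -0.34 and -0.23 (limma adjusted p = 0.565 and 0.668). The other enzymes of the fructose 6-phosphate step, among them the fructose bisphosphatase Fbp1 and Tigar, which breaks down fructose 2,6-bisphosphate, also had 0 of 4 past the test (0 also before adjustment, by limma or the per-gene test) and 3 dim genes, with log2 changes between -0.16 and 0.12. In the pentose phosphate pathway, which branches off at glucose 6-phosphate, 0 of 9 measured genes passed. At an unadjusted p under 0.05, 1 was higher in NF with limma (8.33% of all genes were) and 1 with the per-gene test (5.95%). That gene was Pgd, 6-phosphogluconate dehydrogenase, with a log2 change of 0.65 (limma adjusted p = 0.0852), and the next by p was Prps1, which makes phosphoribosyl pyrophosphate, with a log2 change of -0.43 (limma adjusted p = 0.434).

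Of 21 measured genes of the hypoxia response, several of which respond to the same factors that act on glucose transporter and hexokinase genes, 1 rose, 2 fell and 18 did not pass (1.83% of all genes were called higher and 0.720% lower), with a median log2 change of 0.10. At an unadjusted p under 0.05, 5 were higher and 2 lower with limma (8.33% and 5.49% of all genes), and likewise with the per-gene test (5.95% and 5.13%). All NF values lay above all N values in 6 and below them in 2, beside 10.5% and 9.70% of all genes. Egln3, a prolyl hydroxylase that marks hypoxia-inducible factors for breakdown, rose by 0.87 on the log2 scale (adjusted p = 0.0338 from limma), from 4.30, 4.71 and 4.26 to 5.30, 5.36 and 5.20. Adm, the precursor of the vasodilator peptide adrenomedullin, fell by 1.14 (adjusted p = 0.0215), from 7.84, 8.43 and 8.21 to 6.86, 7.08 and 7.10. Ndrg1, a stress-responsive gene, fell by 1.00 (adjusted p = 0.0445). The groups of these 3 genes did not overlap, nor did those of 20.2% of all genes. All 3 lost their calls without N replicate 3 and without any 1 of the NF arrays, where the adjusted p lay between 0.0591 and 0.235, Ndrg1 also without N replicate 2 (0.0790), and Egln3 and Ndrg1 with every probe set in the adjustment (0.0523 and 0.0697). With replicate numbers as a block and with the adjusted per-gene test all 3 lost them as well (0.0507 to 0.0881 and 0.277 to 0.336).

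**Figure D5:**
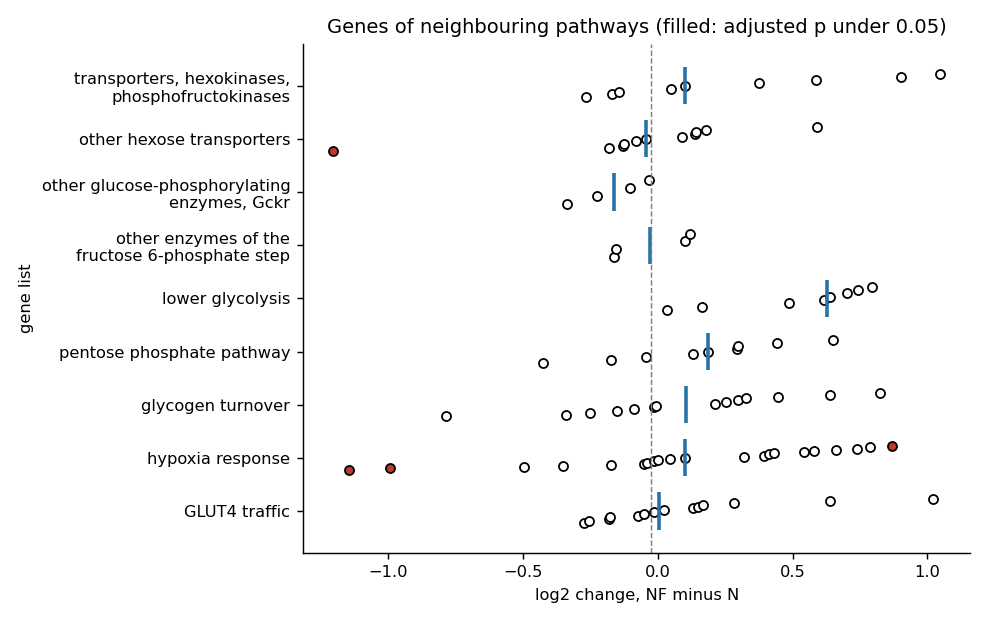
Log2 change from N to NF (horizontal axis) of each measured gene (points) by gene list (rows), filled where the adjusted p was under 0.05, with a vertical bar at each list's median and a dashed line at the median of all genes, -0.03. Filled points are Slc2a6, Adm and Ndrg1 on the low side and Egln3 on the high side, and the 8 genes of lower glycolysis all lie above 0.

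Markers of the cell types were checked against the label. Of 12 fibroblast markers 10 were measured and 8 were above the bound for dim probe sets, among them Vim, Fn1, Col1a1 and Col1a2, while Postn and Fap were dim. The sum of their log2 values was between 79.0 and 83.6 in N, lowest in N replicate 1, and between 84.0 and 86.0 in NF. Col3a1 rose (log2 change 1.33, adjusted p = 0.0157 from limma), the 1 gene of the 10 past the test (1.83% of all genes were called higher). Limma took in 3 at an unadjusted p under 0.05 and the per-gene test 2, all higher in NF, beside 8.33% and 5.95% of all genes. In 3 of the 10 all NF values lay above all N values, beside 10.5% of all genes. The part of these marker differences in those of the glycolytic genes was not tested. Of the markers of skeletal muscle, the tissue of Slc2a4 and Pfkm, 8 of 10 were dim, with Myod1, Myog and Myh3 among them, and of those of adipocytes 4 of 5, including Adipoq and Lep. Markers of macrophages were dim in 5 of 6 and those of epithelium in 5 of 7. The markers above the bound were Lpl (mean 7.41), Lyz2 (5.69), Krt14 (5.41) and, close to it, Ckm, Acta1 and Krt8 (3.79 to 3.90). Lyz2, a macrophage marker, was higher on every NF array than on every N array, with a log2 change of 0.99 (limma adjusted p = 0.371). Of these 4 lists, 0 genes passed limma's adjustment (2.55% of all genes did). At an unadjusted p under 0.05, limma took in 2 (13.8% of all genes) and the per-gene test 1, lower in NF (5.13% of all genes). The sums of their log2 values overlapped between N and NF for muscle (30.9 to 32.7 and 30.6 to 31.6), adipocytes (17.9 to 19.0 and 18.2 to 19.3) and macrophages (18.7 to 20.5 and 20.2 to 21.5). The sum for epithelium lay between 24.25 and 24.98 in N and between 23.44 and 24.23 in NF, and its part in the results was not tested.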

How the data were processed

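The 6 deposited columns hold log2 expression values that the authors computed with RMA, named in the submitters' processing notes and in the paper's methods, which name the R/Bioconductor package oligo and an ENSEMBL annotation without versions and state that probe sets lacking an Entrez gene were dropped. Which arrays were normalized together is not given in the sources used here. Each column was named by its sample, and 0 were left without one. Of 22035 probe sets, the 18197 with 1 gene symbol in the platform annotation were tested, while 1260 with several symbols and 2578 not listed were left out.

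Differences between NF and N were fitted with limma 3.58.1 under R 4.3.3 (lmFit and eBayes, no trend, not robust), with a gene taken at its probe set of lowest p. Both limma and the lowest p are named in the paper's methods. Benjamini-Hochberg adjustment over all probe sets tested was added here. The paper's highly differentially expressed genes had a fold change of at least 2. That cut was not used here, and the 2.07-fold difference of Hk1 exceeds it. The per-gene test is the Student test of the paper's statistics section, run on the same values at an unadjusted p of 0.05 unless adjusted is stated. Log2 changes are NF minus N, and 95% intervals are limma's for single probe sets. The 10 genes, the lists of neighbouring genes and the tests were chosen with earlier results of these data known. The genes named are those measured of the 10, every gene of a neighbouring list past the threshold, up to 2 genes of lowest p where none passed, and the 5 genes most like the one of lowest p, and others were named after their values were seen. The lists were described by counts and medians, with no test of the list. Promoter windows came from RefSeq (GRCm38.p6), motifs were fixed letters, and a comparison of protein sequences was not made. Alternatives were a replicate block, quantile normalization, median centring, dim probe sets left out, another choice of probe set, trend and robust estimation, array weights, the Student test, adjustment over every probe set and each array left out in turn. The code was checked on simulated data with independent errors of equal spread on every array. Those data do not copy the departure of N replicate 1, and no result rests on them. Figures were drawn with matplotlib 3.10.9. Precision is limited by the 3 arrays in each group.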

Additional observations from a re-analysis of the deposited data

How the results depend on the processing

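The count of upper glycolytic genes past the threshold, 0 higher and 0 lower as reported, became 2 higher with quantile normalization, 2 with array weights, 1 with median centring, 1 with dim probe sets left out and 2 with the unadjusted Student test, and with each array left out in turn it ranged from 0 to 2 higher. With replicate numbers as a block it was 0, and Slc2a6, Adm, Egln3 and Ndrg1 lost their calls (adjusted p between 0.0507 and 0.0881). The count of all genes past the threshold, 428, became 80 with the replicate block, 870 with quantile normalization (497 higher and 373 lower, against 307 and 121 as reported), 1168 with array weights, 239 with every probe set of the table in the adjustment, 1 with the Student test after adjustment and 1861 without, and between 1 (without NF replicate 1) and 922 (without N replicate 1) with an array left out, among them 2 when NF replicate 3 was dropped, 139 when N replicate 3 was and 241 when NF replicate 2 was. Of the genes of the neighbouring pathways, 1 higher and 3 lower, the higher became 0 with the replicate block, 2 with dim probe sets left out, 5 with quantile normalization, 4 with trend and robust estimation, 6 with array weights, 0 with every probe set, 0 with the adjusted and 12 with the unadjusted Student test, and 0 to 4 with an array left out. The lower became 0 with the replicate block, 1 with every probe set, 0 with the adjusted Student test, and 0 to 5 with an array left out. Signs turned for Pfkp with quantile normalization (-0.031), without N replicate 1 and without NF replicate 3 (-0.13 to 0.37 with an array left out), for Slc2a3 without N replicate 1 (-0.24 to 0.016), for Hk2 without N replicate 3 (-0.35 to 0.042) and for Slc2a4 without NF replicate 2 (-0.083 to 0.14). Slc2a3 and Slc2a4 have no value with dim probe sets left out. The cause was not tested. The replicate numbers gave no sign of pairing the arrays, since the deviations of same-numbered N and NF arrays from their group means correlated at -0.0748, -0.0780 and -0.0736 and each N array correlated best with an NF array of another number.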

Other observations

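Glycogen is a store that can be filled from glucose 6-phosphate. Of 14 measured genes of glycogen turnover 0 passed limma's adjustment (1 higher and 1 lower at an unadjusted p under 0.05, where 13.8% of all genes reached this level in either direction, 0 and 1 with the per-gene test). Gyg, glycogenin, the primer of glycogen chains, read 8.57, 8.82 and 9.02 in N and 7.91, 8.38 and 7.77 in NF, a log2 change of -0.78 (limma adjusted p = 0.0958), and without N replicate 1 it passed (-0.90, adjusted p = 0.0277). Pgm1, which links glucose 1-phosphate and glucose 6-phosphate, read 7.03, 7.92 and 7.93 in N and 8.40, 8.35 and 8.61 in NF, a log2 change of 0.83 (adjusted p = 0.165). Without N replicate 1 its change was 0.53 (limma adjusted p = 0.0538). It passed with quantile normalization (0.0272) and array weights (0.0448) and under no other alternative.

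Of 14 measured genes of GLUT4 traffic, 0 passed limma's adjustment (2.55% of all genes did). At an unadjusted p under 0.05, 1 was higher in NF with limma (8.33% of all genes were) and 2 with the per-gene test (5.95%). Without N replicate 1, 1 gene passed, Irs2, lower in NF (2.56% of all genes were called lower). With all 6 arrays the log2 change of Irs2 was -0.275 (limma adjusted p = 0.747). Tbc1d4, a regulator of the vesicles that carry GLUT4, read 3.33, 4.46 and 3.97 in N and 5.12, 4.64 and 5.06 in NF. Its NF values all lay above its N values, as in 10.5% of all genes. The log2 change was 1.02 (limma adjusted p = 0.127), and 0.72 without N replicate 1 (limma adjusted p = 0.0729). Slc2a4 itself was dim in these cells. Rab14, a small GTPase of vesicle traffic, had a log2 change of 0.28 (limma adjusted p = 0.388).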
